A study of Mus musculus with 6 samples.

Results

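The genes described here encode the proteins that hold RNA polymerase II (Pol II) at a pause just past the promoter and that carry it through chromatin afterwards. They are 9 genes of the 55487 in the deposited table, chosen by name: Nelfa, Nelfb, Nelfcd and Nelfe for the negative elongation factor NELF, Supt5 and Supt4a for the DRB sensitivity-inducing factor DSIF, Supt6 for the elongation factor SPT6, and Supt16 and Ssrp1 for the histone chaperone FACT. All 9 were found once each by symbol, and all 9 were among the 18766 genes tested, those whose values averaged 3 or more on the scale of the table.

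Total RNA was sequenced from cKit+ cells of whole mouse bone marrow, Kit being a receptor found on stem and progenitor cells. WT cells (n = 3 libraries) carried a lentivirus that overexpressed wild type MLLT3, and DM cells (n = 3) one that overexpressed MLLT3 with the substitutions K63E and K67E. Cells of both groups were sorted and then cultured 8 days, in methylcellulose to which were added Flt3L at 10 ng/mL, further cytokines at 20 ng/mL each that included EPO, SCF, GM-CSF, IL-3, IL-6 and IL-11, gentamycin, and 4-hydroxytamoxifen at 200 nM, which was added to delete the endogenous Mllt3 gene. Both groups thus shared the culture and the agent meant to delete the gene. The age and strain of the mice are not given in the sources used here, and nothing states that the libraries of a group came from separate animals, so p-values measure only the spread between these libraries. Each value is a regularized logarithm (rlog, base 2), and the depth behind it is unknown.

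Pausing is known as a checkpoint between the start of transcription and productive elongation. NELF and DSIF bind Pol II together and hold it, and the kinase P-TEFb, which the noncoding RNA 7SK keeps in an inactive store, releases it by phosphorylating both. NELF then leaves, while DSIF stays on as an elongation factor and is joined by SPT6, and FACT loosens and rebuilds nucleosomes in the path of the polymerase. MLLT3 is a subunit of complexes that bring P-TEFb to chromatin, and the series title describes its YEATS domain as a reader of acylated histones and of 7SK, so the comparison of DM with WT asks here whether the genes of the pausing machinery differ in level between cells with the intact and the substituted domain.

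The labelled cell type and the targeted gene were read first. Kit had values from 14.29 to 14.58 in WT and from 14.3 to 14.9 in DM. Mast cell and basophil genes were also at high levels in both groups, as given below. Which cells of the cultures gave the Kit values was not tested. Mllt3 had values from 12.44 to 12.87 in WT and from 11.99 to 12.44 in DM, and fell by 0.48 (limma adjusted p 0.0448). Whether its values hold transcripts of the vector is not given in the sources used here, so it is no check of the deletion. Library medians over the tested genes lay between 8.03 and 8.11, and no pair of libraries was identical. WT replicate 3 stood apart at the levels of these genes: it had the lowest WT value for 8 of the 9 genes, and for 74.6% of the 6520 genes whose mean lay in the members' range of 9.28 to 12.82.

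The test between the groups called 0 of the 9 genes (limma, Benjamini-Hochberg adjusted p under 0.05 over all 18766 genes), against 13.9% of all genes tested, 9.2% higher and 4.71% lower in DM, and 23.1% of the genes in the same range of levels. Of the 9, 1 (Ssrp1) had an unadjusted p under 0.05, against 28.9% of all genes tested. Among all 2611 genes called, 66.1% were higher in DM, a share that was 51.3% of 2654 after quantile normalization, which gives all libraries the same distribution of values. The differences of mean rlog values ran from -0.2 for Ssrp1 to 0.16 for Supt6, with 5 genes lower and 4 higher in DM and a median of -0.03, where the median over all genes tested was 0.01. The 95% intervals had half-widths from 0.15 to 0.18, and their outermost bounds were -0.36 and 0.33, or -22.3% and 25.4% on the linear scale. As these are bulk RNA values, fewer cells of a type and less RNA per cell cannot be told apart in any of them.

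**Figure D1:**
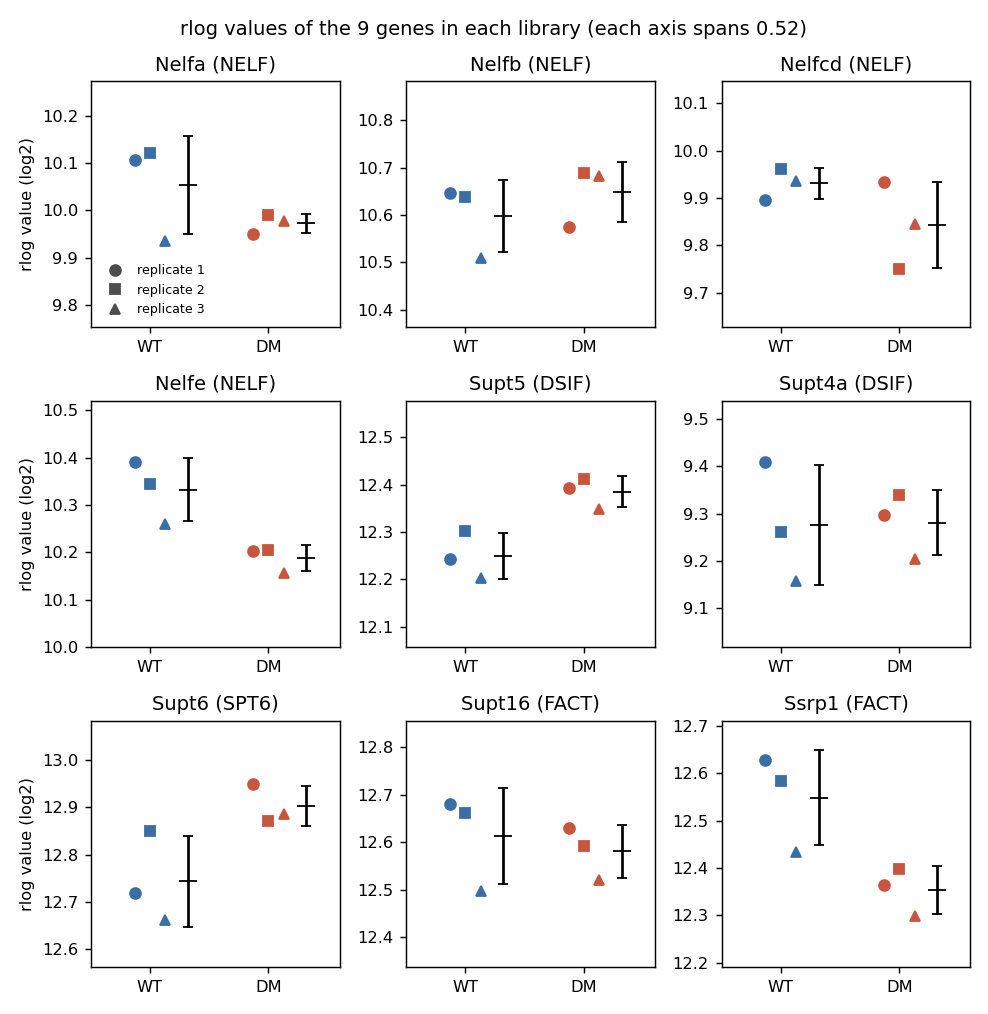
rlog values (log2, vertical axes) of the 9 genes in the 3 WT and 3 DM libraries, with the group mean and SD in black beside the points. The groups are separate for Nelfe, Supt5, Supt6 and Ssrp1 and overlap for the other 5 genes, and the WT triangle (replicate 3) is the lowest WT point in 8 of 9 panels.

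WT and DM values were fully separate in 4 of the 9 genes, 2 lower in DM (Nelfe, Ssrp1) and 2 higher (Supt5, Supt6). Over all genes tested 35.8% had groups that did not overlap, 14.3% lower and 21.5% higher in DM, and in the same range of levels 47.1% did, so the share among these genes was near the background.

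A copy of 1 member in the genome limits how its value can be read, and its sequence is shown for that reason. Supt4a, the gene of the small DSIF subunit SPT4 (ENSMUSG00000020485.14; chromosome 11, 87737552 to 87743623, plus strand), has a processed pseudogene, Supt4b (ENSMUSG00000110960.1; chromosome 10, 31413815 to 31414165, minus strand), which repeats its coding sequence. All coordinates here are from GENCODE M21 on GRCm38, the assembly of the build mm10 named in the submitters' processing notes, and both sequences are from the GENCODE M21 transcripts. The 351 bases of Supt4b match the coding bases of Supt4a from the start codon to the base before the stop codon. The first 200 of these bases, which hold every difference, are given 5′ to 3′ in the sense of the gene, with the positions at which the copies differ in capitals.
Supt4a: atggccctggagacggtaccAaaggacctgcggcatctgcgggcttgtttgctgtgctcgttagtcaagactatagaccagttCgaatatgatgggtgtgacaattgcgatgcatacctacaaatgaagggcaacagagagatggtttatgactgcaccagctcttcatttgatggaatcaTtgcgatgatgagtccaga
Supt4b: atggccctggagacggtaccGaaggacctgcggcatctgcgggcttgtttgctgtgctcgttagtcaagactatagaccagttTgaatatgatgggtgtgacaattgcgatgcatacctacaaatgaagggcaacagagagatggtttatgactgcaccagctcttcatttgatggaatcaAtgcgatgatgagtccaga
The copies are identical at 348 of 351 bases (99.1%). Counted from 1 at the first base of the start codon, with the base of Supt4a first, the differences are A21G, C84T and T182A. The longest run without a difference is 169 bases, so a read that lies inside it could come from either copy. The Supt4a transcript compared has 706 bases, of which 355 have no counterpart in Supt4b. The longest annotated Supt4a transcript has 854 bases. Supt4b had rlog values from 4.63 to 4.74 in WT and from 4.58 to 4.74 in DM, far below those of Supt4a, and its difference between groups was 0 (adjusted p 0.998). A more distant copy, the processed pseudogene Gm17822 (90.6% identity over 351 bases), had a mean rlog of 0.12. The antisense gene Gm48094 matches Supt4a in the opposite orientation (98.1% identity over 154 bases) and had a mean rlog of 0.49. How the authors' counting treated reads that fit both Supt4a and Supt4b is not given in the sources used here.

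NELF has 4 subunits, and 3 of their genes had lower means in DM, with no call in any. Nelfa (ENSMUSG00000029111.7; chromosome 5, 33897916 to 33936413, minus strand), whose product contacts Pol II, had rlog values, given here and below by replicate from 1 to 3, of 10.11, 10.12 and 9.93 across WT and 9.95, 9.99 and 9.98 across DM. The low WT library lay below all DM libraries, so the groups overlapped, and the difference was -0.08 (SE 0.0711, adjusted p 0.469). It was -0.05 when WT replicate 2 was left out, -0.14 when WT replicate 3 was, and -0.16 after quantile normalization. The span of Nelfa shares 60 bases with Nsd2 on the opposite strand (mean rlog 11.72, difference -0.06). It shares 62 bases with the microRNA gene Mir7024 (mean rlog 0). Nelfb (ENSMUSG00000013465.19; chromosome 2, 25199712 to 25211489, minus strand), also known as cofactor of BRCA1, had 10.65, 10.64 and 10.51 across WT and 10.57, 10.69 and 10.68 across DM. These too overlapped, with a difference of 0.05 (SE 0.07, adjusted p 0.665) that was -0.05 after quantile normalization. With WT replicate 3 left out it was 0.01, with DM replicate 2 left out 0.03, with DM replicate 3 left out 0.03 and with DM replicate 1 left out 0.09. The span of Nelfb shares 105 bases with the small nuclear RNA gene Gm22572 on the opposite strand (mean rlog -1.49).

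Nelfcd (ENSMUSG00000016253.12; chromosome 2, 174415804 to 174427502, plus strand), which gives the subunit NELF-C or NELF-D by the choice of start codon, had rlog values of 9.9, 9.96 and 9.94 across WT and 9.93, 9.75 and 9.84 across DM. DM replicate 1 lay among the WT libraries and the other DM libraries below them, and the difference was -0.09 (SE 0.0695, adjusted p 0.42). It was -0.04 without DM replicate 2. The last 10 bases of the gene are shared with Ctsz on the opposite strand, a lysosomal protease gene with a mean rlog value of 14.41 that rose by 0.66 in DM (adjusted p 0.0124).

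Nelfe (ENSMUSG00000024369.16; chromosome 17, 34850391 to 34856372, plus strand) encodes the RNA-binding subunit, which is known for its run of alternating arginine and aspartate. Its rlog values were 10.39, 10.34 and 10.26 across WT and 10.2, 10.2 and 10.16 across DM, so that every DM library lay below every WT library. Group means were 10.33 ± 0.0667 for WT and 10.19 ± 0.0267 for DM (SD, n = 3 each), a difference of -0.14 (SE 0.0652, 95% interval -0.29 to 0, adjusted p 0.176). That is 9.51% lower on the linear scale. The adjusted p passed the threshold in 1 of 13 alternatives, quantile normalization, where the difference was -0.22 (adjusted p 0.022, from 0.022 to 0.403 over the alternatives).

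DSIF is a pair of the large subunit SPT5 and the small subunit SPT4. Supt5 (ENSMUSG00000003435.9; chromosome 7, 28314891 to 28338746, minus strand), whose product carries the repeats that P-TEFb phosphorylates, had rlog values of 12.24, 12.3 and 12.2 across WT and 12.39, 12.41 and 12.35 across DM. Every DM library lay above every WT library. Group means were 12.25 ± 0.0494 for WT and 12.38 ± 0.0328 for DM (SD, n = 3 each), a difference of 0.14 (SE 0.0665, 95% interval -0.01 to 0.28, adjusted p 0.208), or 9.85% higher on the linear scale. After quantile normalization it was 0.02 (adjusted p 0.761, from 0.0965 to 0.761 over the alternatives). The span of Supt5, introns included, shares 3976 bases with the antisense gene Gm44709 (mean rlog 2.43). The longest match between their transcripts was 375 bases.

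Supt4a had rlog values of 9.41, 9.26 and 9.16 across WT and 9.3, 9.34 and 9.2 across DM. The DM libraries lay inside the range of the WT libraries. The difference was 0 (SE 0.0803, 95% interval -0.17 to 0.18, adjusted p 0.977), and its sign changed in 6 of 13 alternatives.

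Supt6 (ENSMUSG00000002052.6; chromosome 11, 78206746 to 78245987, minus strand) encodes SPT6, a histone chaperone that travels with elongating Pol II. Its rlog values were 12.72, 12.85 and 12.66 across WT and 12.95, 12.87 and 12.89 across DM, with the highest WT library just under the lowest DM library. Group means were 12.74 ± 0.0962 for WT and 12.9 ± 0.0418 for DM (SD, n = 3 each), a difference of 0.16 (SE 0.0753, 95% interval -0.01 to 0.33, adjusted p 0.195), or 11.6% higher on the linear scale. It was 0.21 without WT replicate 2 and 0.03 after quantile normalization. Supt6 shares 242 bases at its start with Sdf2 on the opposite strand, a gene that rose by 0.26 in DM (mean rlog 10.31, adjusted p 0.0386). Whether reads were counted by strand is not given in the sources used here, and the part of such shared bases in the values was not tested.

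FACT is a pair of SPT16 and SSRP1, which are known to work as 1 unit, and their genes differed in how far DM lay from WT, a contrast given below by library and not tested. Ssrp1 (ENSMUSG00000027067.16; chromosome 2, 85037234 to 85047109, plus strand), whose product carries the DNA-binding HMG box of the complex, had rlog values of 12.63, 12.58 and 12.43 across WT and 12.36, 12.4 and 12.3 across DM. Every DM library lay below every WT library, by a narrow margin from WT replicate 3. Group means were 12.55 ± 0.101 for WT and 12.35 ± 0.0512 for DM (SD, n = 3 each), a difference of -0.2 (SE 0.0758, 95% interval -0.36 to -0.03, unadjusted p 0.0279, adjusted p 0.122), or 12.7% lower on the linear scale.

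Ssrp1 passed the threshold in 3 of 13 alternatives, of which 2 were other scalings and 1 kept the deposited scale and added the replicate number as a term. With each library centred on its median the difference was -0.23 (adjusted p 0.0424), and after quantile normalization it was -0.32 (adjusted p 0.00633), both past the threshold, where 14.7% and 14.1% of all genes were called. Over all 13 alternatives the adjusted p ran from 0.00633 to 0.321 and the difference from -0.32 to -0.16. Without WT replicate 3 it was -0.25 (adjusted p 0.0529), and without WT replicate 1 it was -0.16 (adjusted p 0.321). The span of Ssrp1, introns included, shares 229 bases at its start with P2rx3 on the opposite strand. P2rx3, an ion channel gene at a mean rlog of 4.68, fell by 0.25 in DM (limma adjusted p 0.021).

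Supt16 (ENSMUSG00000035726.8; chromosome 14, 52160414 to 52197416, minus strand), whose product holds histones H2A and H2B, had rlog values of 12.68, 12.66 and 12.5 across WT and 12.63, 12.59 and 12.52 across DM. All DM libraries lay inside the WT range. The difference was -0.03 (SE 0.0768, 95% interval -0.2 to 0.14, adjusted p 0.807), and it was -0.17 (adjusted p 0.0737) after quantile normalization and 0 without WT replicate 1. At its 3′ end its span, introns included, shares 3133 bases with Rpgrip1 on the opposite strand. The longest match between their transcripts was 986 bases. Rpgrip1 had a mean rlog of 6.9 and a difference of -0.02 (limma adjusted p 0.909).

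**Figure D2:**
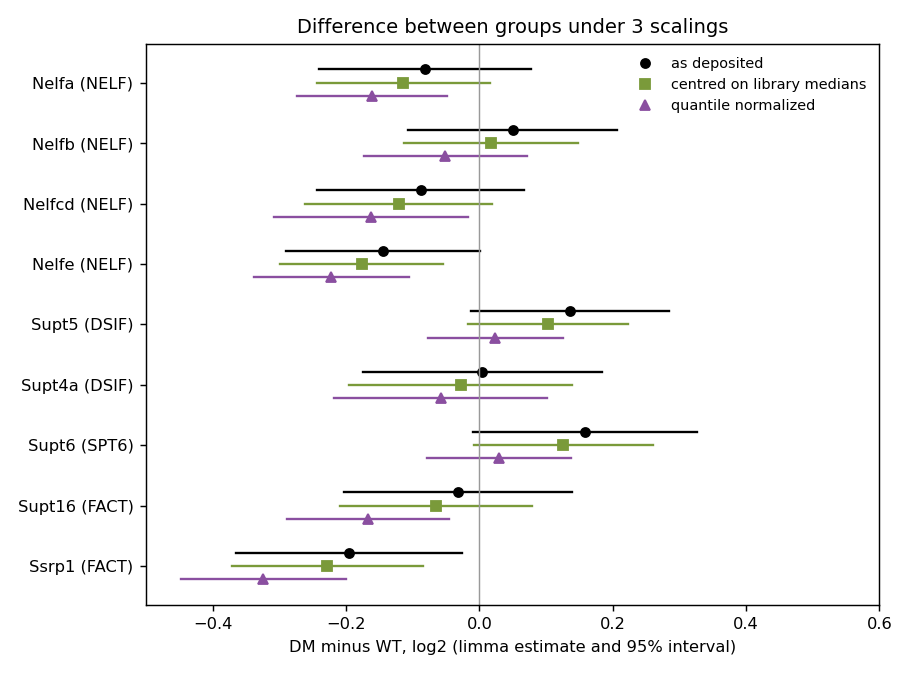
Difference of DM from WT (log2, limma estimate with its 95% interval) for the 9 genes with values as deposited (black), centred on library medians (green) and quantile normalized (purple). Each estimate moves to the left from black to purple, and the interval of Ssrp1 lies below 0 in all 3.

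The scaling moved all 9 genes the same way. Quantile normalization gave lower estimates than the deposited scale for each of them, with a median of -0.16 against -0.03, and left 7 genes lower and 2 higher in DM. Genes in the members' range of levels had a median change of 0.1 on the deposited scale, 0.07 after centring on library medians and 0.01 after quantile normalization. WT replicate 3, the lowest WT library for 8 members on the deposited scale, was the lowest for 2 after quantile normalization.

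**Figure D3:**
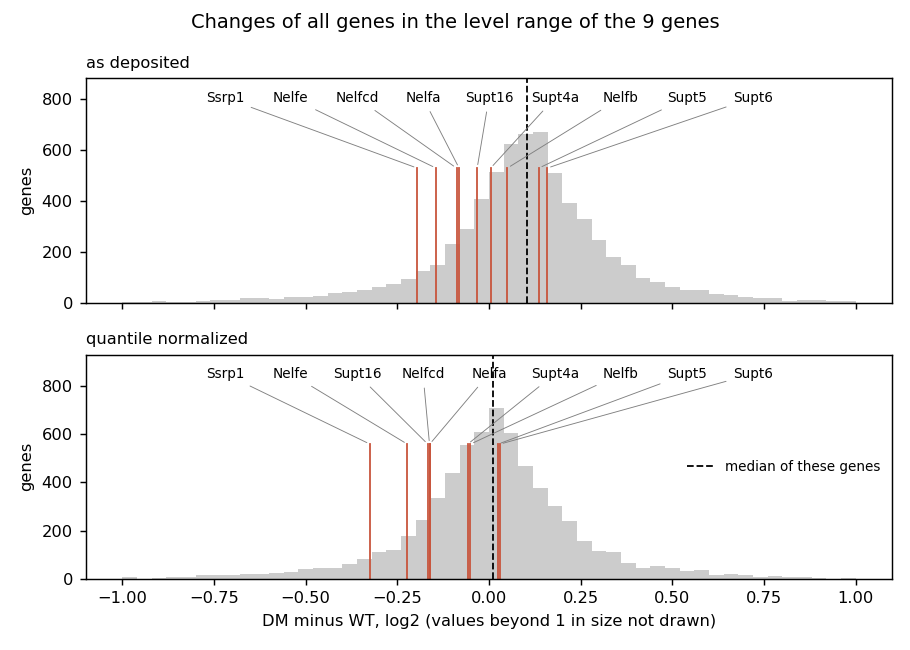
Number of genes (vertical axis) by difference of DM from WT (log2, horizontal axis) for the 6520 genes with a mean rlog in the members' range, as deposited and quantile normalized, with the 9 genes as red lines and the median of all these genes dashed. On the deposited scale the dashed median is at 0.1, and 7 of the 9 genes lie to its left.

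Differences between genes of the same library do not depend on any factor applied to a whole library. They can still change under quantile normalization, which is not such a factor. With it the mean difference between groups went from 0.163 to 0.157 for Supt16 minus Ssrp1. For Nelfb minus Nelfe it went from 0.194 to 0.171, and for Supt5 minus Supt4a from 0.131 to 0.082. The values below are on the deposited scale. Supt16 minus Ssrp1 was 0.05, 0.08 and 0.06 across WT and 0.27, 0.19 and 0.22 across DM, a mean of 0.06 ± 0.0127 (SD, n = 3) against 0.23 ± 0.0364. The FACT genes were thus closer to each other in WT than in DM in all libraries, by 0.16 on the log2 scale.

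Within NELF, Nelfb minus Nelfe was 0.25, 0.29 and 0.25 across WT and 0.37, 0.48 and 0.52 across DM, a mean of 0.27 ± 0.0245 (SD, n = 3) against 0.46 ± 0.0787. Within DSIF, Supt5 minus Supt4a was 2.83, 3.04 and 3.05 across WT and 3.1, 3.07 and 3.14 across DM. WT replicate 1 set most of that mean difference of 0.13. Supt6 minus Supt5, the factors that travel together after the pause, was 0.47, 0.55 and 0.46 across WT and 0.56, 0.46 and 0.54 across DM, which overlapped, with a mean difference of 0.02.

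Of the 36 pairs of members, 19 (52.8%) had groups that did not overlap, among them 4 of the 8 pairs inside a complex. Over all pairs of genes in the members' range of levels the share was 49.7%, so these counts were near the background. The largest differences were those of Supt6 and Supt5 from Ssrp1, at 0.35 and 0.33. The pairs shown were chosen after their values were seen, and no test was run on them.

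**Figure D4:**
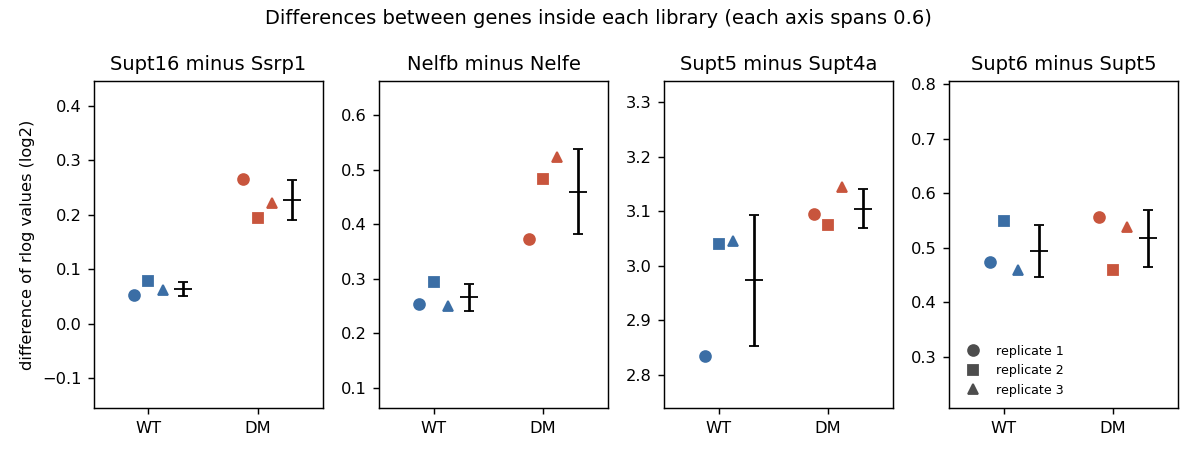
Difference of rlog values (log2, vertical axes) between 2 genes inside each of the 3 WT and 3 DM libraries, with the group mean and SD in black. WT and DM points are separate for Supt16 minus Ssrp1, Nelfb minus Nelfe and Supt5 minus Supt4a and overlap for Supt6 minus Supt5.

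Levels between genes were compared per length, as the mean rlog value minus the log2 of the longest annotated transcript in kb. On that scale Ssrp1 was highest at 11, followed by Supt5 (10.41), Supt16 (10.37), Supt6 (10.12), Nelfe (9.58), Supt4a (9.51), Nelfb (9.16), Nelfcd (8.7) and Nelfa (8.65), a range of 5.11-fold. The genes of FACT, SPT6 and SPT5 thus had the highest levels per length and those of NELF and SPT4 the lowest. The neighbours Supt5 and Supt16, Nelfe and Supt4a, and Nelfcd and Nelfa were closer than the SD of at least 1 gene of each pair within groups. With the summed length of all exons in place of the longest transcript, 4 of the 9 genes kept their place: Supt5 moved from place 2 to place 4, and Supt16, Supt6, Supt4a and Nelfe moved by 1 place each.

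The other genes of pausing and elongation were taken from 8 lists of 108 genes in all, of which 107 were tested. In 6 of these lists no gene passed the test (limma), and 5 of their 70 tested genes (7.14%) had an unadjusted p under 0.05, against 28.9% of all genes tested. They were the lists of Pol II subunits (0 of 12 called, median change 0.12), P-TEFb and 7SK proteins (0 of 8, 0.01), other kinases and phosphatases of Pol II and SPT5 (0 of 14, 0.09), Integrator, which cuts the RNA of paused polymerase (0 of 14, -0.02), the PAF complex and other elongation factors (0 of 11, 0.02), and cap-binding and early termination factors (0 of 11, 0.06). The 5 genes, named after their values were seen, were Polr2a (0.22), the gene of the largest Pol II subunit, Polr2k (0.16), the P-TEFb kinase gene Cdk9 (0.18), and the phosphatase genes Ppp2r1a (0.21) and Ssu72 (0.19), all with higher means in DM. The 6 lists were grouped for holding no call, which itself favours a low share, so the 7.14% is a description only. Genes in the members' range of levels had a median change of 0.1 on the deposited scale and 0.01 after quantile normalization. With that normalization the medians of the 6 lists, in the order given, were 0.04, -0.06, 0.01, -0.09, -0.05 and -0.04. An unadjusted p under 0.05 (limma) was found for 7 of 17 other histone chaperones (41.2%) and 8 of 20 genes known for a pause (40%).

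Histone chaperones other than FACT and SPT6 had a median change of -0.09, and of -0.19 after quantile normalization. Of the 17 genes 4 were called, all lower in DM, and 13 did not pass. That is 23.5% of the list, against 13.9% of all genes tested (4.71% lower in DM). Among genes at the levels of the 9 members 23.1% were called, in either direction. The share of the list was near the latter and above the 4.71% called lower over all genes tested. The difference between these shares was not tested. Hjurp, which loads the centromeric histone, had values of 12.3, 12.38 and 12.2 across WT and 11.73, 11.64 and 11.8 across DM and fell by 0.57 (SE 0.076, adjusted p 0.00251). Chaf1a, of the chromatin assembly factor that works behind the replication fork, fell by 0.31 (adjusted p 0.0191), and Asf1a, which passes histones H3 and H4 to it, fell by 0.31 (adjusted p 0.0141). Asf1b, a close relative of Asf1a, was the other gene called (-0.29, adjusted p 0.0296) and is named after its value was seen. Chaf1a no longer passed when WT replicate 1 was left out (-0.29, adjusted p 0.0878), nor when DM replicate 2 (-0.33, adjusted p 0.056) or DM replicate 3 (-0.27, adjusted p 0.0845) was. The same held for Asf1a when WT replicate 1 (-0.3, adjusted p 0.0612) or DM replicate 2 (-0.31, adjusted p 0.0528) was left out. Asf1b passed in 8 of 13 alternatives. It did not when WT replicate 1 (-0.26, adjusted p 0.12), WT replicate 2 (-0.27, adjusted p 0.0516), DM replicate 2 (-0.29, adjusted p 0.101) or DM replicate 3 (-0.25, adjusted p 0.12) was left out, nor without the filter on the mean (adjusted p 0.198).

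Proliferation genes were lower in DM beside these chaperones. Of 20 such genes 17 (85%) were called, all lower in DM, where 4.71% of all genes tested were called lower. The median change of the 20 was -0.42, and their summed level was 16.57 to 16.72 (log2) in WT and 16.19 to 16.37 in DM. Cdc20 (-0.66, adjusted p 0.00166) and Plk1 (-0.61, adjusted p 0.00159), which drive mitosis, and the spindle motor gene Kif11 (-0.55, adjusted p 0.00403) had the largest falls. The part of proliferation in the values of Ssrp1 and of these chaperones was not tested.

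Genes known for a pause near their start had a median change of 0.17, and of 0.1 after quantile normalization. Of the 20 genes 6 were called, all higher in DM, and 14 did not pass. That is 30.0% of the list, against 13.9% of all genes tested (9.2% higher in DM) and 23.1% of genes at the levels of the 9 members, and the difference between these shares was not tested. Egr2, an immediate early transcription factor, had values of 10.53, 10.81 and 10.41 across WT and 11.27, 11.21 and 11.32 across DM and rose by 0.69 (SE 0.0989, adjusted p 0.00377). The stress factor gene Atf3 rose by 0.67 (adjusted p 0.00484), and Dusp1, a phosphatase gene that limits MAP kinase signals, rose by 0.41 (adjusted p 0.013). The adjusted p of Dusp1 was 0.0596 with DM replicate 2 left out (change 0.37) and 0.0537 with DM replicate 3 left out (0.39). The other genes called, named after their values were seen, were Fos (0.38, limma adjusted p 0.0484), Junb (0.28, 0.0421) and Zfp36 (0.34, 0.0273). Of 13 alternatives, Fos and Junb passed in 5 each and Zfp36 in 7. These are steady-state RNA values, in which pausing itself was not measured.

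Markers of other cell types also differed between the groups. Of 12 neutrophil genes 11 were called, all lower in DM, with a summed level of 18.53 to 18.99 (log2) in WT and 17.01 to 17.89 in DM. Of 12 monocyte and macrophage genes 9 were called higher and 2 lower, with a summed level of 18.29 to 18.97 in WT and 19.27 to 19.63 in DM. In the stem and progenitor list 2 of 12 genes were called higher and 2 lower, in the mast cell and basophil list 1 of 10 higher and 1 lower, in the megakaryocyte list 2 of 10 higher, in the eosinophil list 3 of 8 lower and in the lymphoid list 1 higher and 3 lower of 6 tested. Over all genes tested 13.9% were called, and 23.1% of genes at the levels of the 9 members. The mast cell and basophil list and the megakaryocyte list, at 20% each, lay between these shares. The summed level of the mast cell and basophil list was 18.9 to 19.27 (log2) in WT and 18.92 to 19.4 in DM. Of 9 erythroid genes tested none was called, and none had an unadjusted p under 0.05. No marker gene of these lists was listed at 0 in all libraries, and the part of cell makeup in the values of the 9 genes was not tested.

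**Figure D5:**
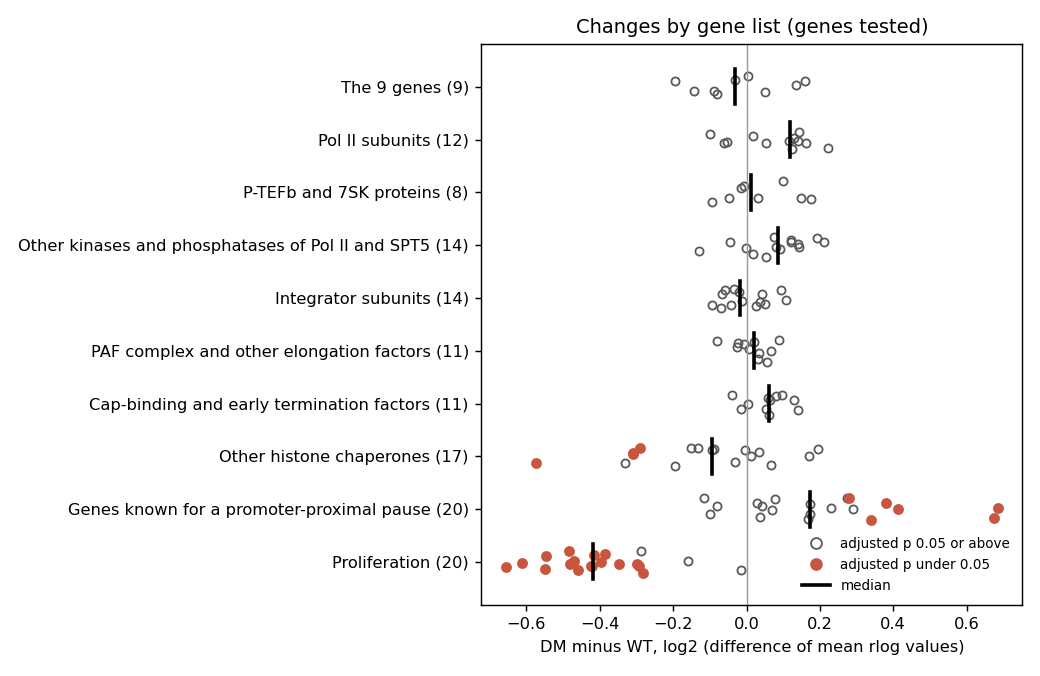
Difference of DM from WT (log2, horizontal axis) for the 9 genes, the 8 lists of other pausing and elongation genes and the proliferation list, with 1 point per tested gene, filled where the adjusted p was under 0.05, and the median as a bar. Filled points are found in 3 lists only: other histone chaperones (4, all below 0), genes known for a pause (6, all above 0) and proliferation (17, all below 0).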

How the data were processed

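Per the labels' protocols, RNA of 6 libraries was extracted with the AllPrep kit and prepared with a total RNA kit (Tecan Universal Plus with AnyDeplete). The table the authors deposited holds values on the log2 scale, taken as regularized log (rlog) values from its name and range. That transform draws low values together, which understates changes of weakly expressed genes. Per the submitters' processing notes, cutadapt 2.6, STAR 2.7.3, DESeq2 1.30.0 and build mm10 were used. The counting tool and its use of strand are not given in the sources used here. The 142699 lines were merged to 55487 genes. Values as deposited were fitted with limma 3.58.1 (R 4.3.3, mean-variance trend, no covariates) on 18766 genes (6-library mean 3 or more), with Benjamini-Hochberg adjustment and a threshold of 0.05. The fit was tested on simulated data with planted shifts larger than any difference of the 9 genes. That test cannot tell whether differences of their size would be called. Copies were sought with blastn 2.17.0 among GENCODE M21 transcripts (at least 90% identity over 100 bases). Counts were not used here, so depth is unknown and no counting intervals were computed. The members, lists and tests were chosen with earlier results of these data known. Named genes are the 9 members, Kit and Mllt3 as checks of the labels, up to 3 called genes with the largest changes in each list of the pathway and of proliferation, genes that overlap or copy a member, and the 3 genes nearest in profile to each complex. Others are said to be named after their values were seen. Alternatives were no filter, a mean of at least 5, no trend, quantile normalization, median centring, protein-coding genes only, a replicate block and each library left out.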

Additional observations from a re-analysis of the deposited data

How the results depend on the processing

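The number of members called was 0 on the deposited scale and in 10 of 13 alternatives, against 2 after quantile normalization (Nelfe, Ssrp1), 1 with median centring (Ssrp1) and 1 with the replicate block (Ssrp1, adjusted p 0.0341). Nelfe was then at -0.22, and Ssrp1 at -0.32, -0.23 and -0.2. Signs reversed for Nelfb (-0.0511) after quantile normalization, for Supt4a after quantile normalization (-0.0581), with median centring (-0.0282) and in 4 of 6 fits with 1 library left out (-0.0548 to 0.0707 over all 6), and for Supt16 in 1 of them (0.00146 without WT replicate 1, from -0.0907 over all 6). Without the filter on the mean 138 of all genes were called, 0 pathway genes and 1 marker gene, and all 9 list genes tested under the alternatives lost their calls. With 1 library left out the calls over all genes ran from 1119 to 3475, against 2611, and those of pathway genes from 3 to 12, against 10. The counts over all genes were 1185 with WT replicate 1 left out, 1119 with DM replicate 2 left out and 1537 with DM replicate 3 left out, and those of pathway genes 5, 3 and 4. The cause of these shifts was not tested. With the replicate block 3742 genes were called, 19 of them pathway genes. Same-numbered libraries had correlations of deviations of 0.49, 0.12 and 0.04, and other-numbered ones ran from -0.34 to 0.12. WT replicates 1 and 2 correlated best with the DM library of their own number, and WT replicate 3 with DM replicate 2 (0.12). The numbers were not taken as pairs, but these values cannot settle whether they mark pairs. The call of Ssrp1 with the replicate block depends on that choice. With exon union lengths 4 of 9 genes kept their place in the order of levels. Depth is unknown, so no limit from counting could be set.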

Other observations

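The genes nearest in profile to each complex were sought among 11968 genes with a mean rlog of at least 6, by the root mean square difference of centred values over the 6 libraries. Cdan1, Trmo and Acp6 were nearest to the mean of the NELF genes, at 0.0133 to 0.018, where the NELF profile itself had a root mean square of 0.0478. Eef1akmt2, Chchd5 and Gfer were nearest to DSIF (0.00564 to 0.0126, profile 0.0627), and Sptan1, Med1 and Zdhhc8 to Supt6 (0.0118 to 0.0123, profile 0.0998). Sfpq, Wdr46 and Ccnh were nearest to FACT (0.0119 to 0.0167, profile 0.0866), and Ccnh, a cyclin of the kinase that acts at the start of transcription, is also in the list of other Pol II kinases. None of these 12 genes was called between DM and WT. With 6 libraries and so many candidates, close profiles are a description only.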
